A study of Mus musculus with 9 samples.

Results

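The transcripts described here are those of 10 chemokine genes of the mouse hippocampus, Cxcl9, Cxcl10, Cxcl16, Cxcl12, Ccl2, Ccl3, Ccl4, Ccl5, Ccl12 and Cx3cl1, out of 54532 genes in the count table. They were picked by name as chemokines of glia, macrophages and vessels, with Cxcl9 and Ccl5 included because their counts in these same samples were lower after Ant-134. The difference between the groups was therefore used in choosing them and is given as a description. Their counts past a threshold only describe the fit and are no test of them. All 10 genes passed the filter on low counts that left 19782 genes to be compared. Cxcl9 did so through the Scr libraries, where it had 38 to 58 counts, against 0 to 12 in Ant-134. Its place among the genes compared thus depends on the group in which it is high. The mice were N4 Ube3a m-/p+ animals, which model Angelman syndrome, carry a mutated maternal and an intact paternal copy of Ube3a, and were backcrossed to a 129 background so that loud sound provokes seizures. Each mouse was injected into the cerebral ventricle on postnatal day 21 with 0.5 nmol of Ant-134, a locked nucleic acid antimiR that blocks the microRNA miR-134 (n = 5), or of Scr, a scrambled oligonucleotide (n = 4). All were exposed to audiogenic seizure testing on days 22, 24 and 26, and the hippocampus on the injected side was taken 24 h after the last test, 1 hippocampus of 1 mouse per sample. Both groups share the Ube3a mutation, an oligonucleotide injection and the seizure tests, with no wild-type, uninjected or unstimulated mice among the samples, so direct effects of Ant-134 and effects of any difference in seizures cannot be told apart.

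Chemokines are small secreted or membrane-tethered proteins that steer leukocytes and microglia through G protein-coupled receptors, and many of these receptors serve more than 1 ligand. In brain, Cxcl9 and Cxcl10 are typically induced by interferons and attract T cells through Cxcr3, and Ccl3, Ccl4 and Ccl5 attract macrophages, T cells and microglia. Ccl2 and Ccl12 recruit monocytes through Ccr2, whereas Cx3cl1 of neurons and Cxcl12 of vessels, meninges and neurons are made in the uninjured brain.

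Upstream sequences are shown first for 3 of the genes, Cxcl9 as the gene with the lowest level after Ant-134 relative to Scr, its neighbour Cxcl10, and Ccl3 of the CC chemokines. Of the 10 genes, 6 had an entry in the RefSeq promoter table for GRCm38.p6, namely Cxcl9, Cxcl10, Cxcl12, Ccl3, Ccl12 and Cx3cl1. Cxcl16, Ccl2, Ccl4 and Ccl5 had none. Each run below holds the 250 bases before the RefSeq start, 5′ to 3′ on the strand of the gene. Capitals mark matches to the interferon-stimulated response element core (GAAA, any 2 bases, GAAA), a kappa-B site (GGGA, any 2 bases, TTCC, or its 9-letter form GGGANTTCC) or a TATA box (TATAAA). The 9-letter form was added after the promoters had been seen. Cxcl9 lies at chr5:92328080-92328329, Cxcl10 at chr5:92348890-92349139 and Ccl3 at chr11:83649379-83649628, all on the minus strand.
Cxcl9: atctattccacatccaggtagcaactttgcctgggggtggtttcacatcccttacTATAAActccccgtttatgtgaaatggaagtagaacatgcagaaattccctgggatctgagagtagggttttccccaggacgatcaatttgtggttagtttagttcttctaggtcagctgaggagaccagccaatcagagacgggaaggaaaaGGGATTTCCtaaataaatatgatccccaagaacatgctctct
Cxcl10: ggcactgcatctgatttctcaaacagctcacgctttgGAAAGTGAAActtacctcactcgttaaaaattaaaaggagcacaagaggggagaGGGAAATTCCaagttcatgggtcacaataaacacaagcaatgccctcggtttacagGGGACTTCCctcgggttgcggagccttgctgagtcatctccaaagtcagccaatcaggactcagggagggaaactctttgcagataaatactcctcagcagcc
Ccl3: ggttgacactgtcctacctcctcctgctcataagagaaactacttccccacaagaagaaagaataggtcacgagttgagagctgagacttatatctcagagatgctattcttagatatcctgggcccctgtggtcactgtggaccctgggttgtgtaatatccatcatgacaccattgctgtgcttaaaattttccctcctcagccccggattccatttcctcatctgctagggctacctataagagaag

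Both strands were searched in the whole window of 300 bases, from 250 before to 50 after the start. Cxcl10 held the response element core at -213 to -204, a 10-letter kappa-B match at -159 to -150 and a 9-letter one at -103 to -95, with the base before the start at -1. Cxcl9 held a 9-letter kappa-B match at -42 to -34 and a TATAAA at -195 to -190. Ccl3 held none of the letters searched, and its run is shown without capitals. TATAAA was also found in Ccl12 at -31 to -26 and in Cx3cl1 at -6 to -1. For Cx3cl1 and Ccl3 the RefSeq start differs from the start of the gene in the count table. The gamma-activated sequence TTCNNNGAA occurred in 0 of the 6 windows. Of 32851 promoters of the same length in the table, 3.44% held the response element core, 8.30% TTCNNNGAA, 1.47% the 10-letter and 1.68% the 9-letter kappa-B form, and 13.6% TATAAA. These matches describe letters in a window and show neither binding nor use of a site.

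The blocked microRNA is shown because canonical targets of a microRNA carry a match to its seed. Mature mmu-miR-134-5p (RefSeq, GRCm38.p6, chr12:109734145-109734166, plus strand) is printed with its seed, bases 2 to 8, in capitals.
mmu-miR-134-5p: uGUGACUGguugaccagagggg

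The longest 3′ UTR that GENCODE M21 gives each gene was searched for CAGTCAC and AGTCACA, a search added after the members' values were known. Of the 10 chemokines 1 held a match, Cx3cl1, whereas 19.5% of the 15279 tested genes with an annotated 3′ UTR did. The 3′ UTRs of the 10 genes ranged from 167 bases (Ccl12) to 5188 bases (Cxcl12), with a median of 702.5 bases against 1164 over all those genes. The site in Cx3cl1 begins at base 1041 of a 3′ UTR of 1871 bases and is shown in capitals within 30 bases at chr8:94781586-94781615 (GRCm38, plus strand).
Cx3cl1 site: caccaaggtgaCAGTCACAggtctgccctg

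The 9 libraries held 28583298 to 41978113 counts on genes, and edgeR's biological coefficient of variation was 11.9%. A floor of 3 counts corresponded to 0.0709 to 0.107 CPM (counts scaled to the size of each library after TMM normalization), and intervals or floors of this kind cover counting error only. Markers of hippocampal principal neurons were present in each library, with a summed level of 784.6 to 1005 CPM over 6 genes. Choroid plexus markers, among them Ttr, summed to 70.4 to 2594 CPM and were high in Ant-134 replicate 1 and in Scr replicates 2 and 3, that is in both groups. In edgeR's quasi-likelihood test 827 of 19782 genes had an unadjusted p value below 0.05, 294 higher and 533 lower in Ant-134, and 0 had an adjusted p value below 0.05, whereas DESeq2 gave 1027 and 16. The count after adjustment varied with the fit, at 17 in edgeR without Ant-134 replicate 1, 14 with no filter on counts, and 2 with the replicate number as a block. The median log2 fold change of all genes was 0.0026. Because these are bulk samples, fewer cells of a type and less RNA per cell cannot be told apart.

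Of the 10 chemokines, 5 had an unadjusted p value below 0.05 with a lower level in Ant-134 (Cxcl9, Ccl5, Ccl3, Ccl4 and Cxcl16), and 0 passed with a higher level. Over all genes tested by edgeR, 2.69% were called lower and 4.18% in either direction, and 0% passed adjustment. In DESeq2, the tool of the study, 2 of the 10 (Cxcl9 and Ccl5) were past the threshold after adjustment, as were 0.0657% of the 24364 genes with an adjusted p value. With a stricter filter of at least 10 counts in every sample, which removed Cxcl9 and Ccl3, 3 of the other 8 were lower at the unadjusted threshold (edgeR), against 2.7% of the genes in that fit. Since the members were chosen with this contrast known, nothing is read from these counts. In 2 of the 10, Cxcl9 and Ccl5, each Ant-134 mouse lay below each Scr mouse, which held for 0.895% of all genes tested. The fitted log2 fold changes (Ant-134 over Scr) spanned -2.66 to 0.13, with a median of -0.63, and 8 of the 10 were negative.

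**Figure D1:**
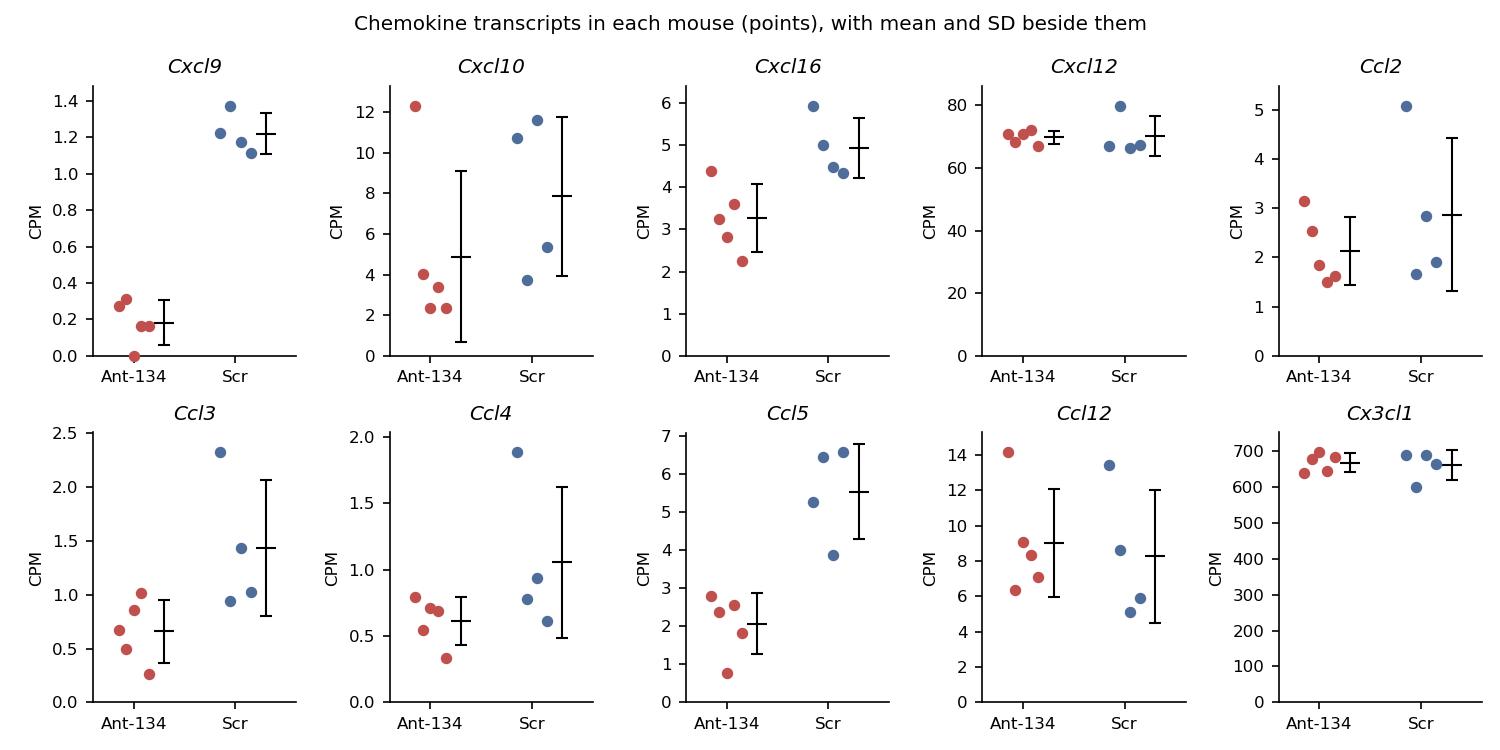
Level of each of the 10 chemokine transcripts (y axis, CPM from 0; each panel has its own scale) in 5 Ant-134 and 4 Scr mice; points are mice, and the bar beside them is the mean with its SD. In Cxcl9 and Ccl5 the groups do not overlap, Cxcl10 has 1 high mouse in Ant-134 at 12.3 CPM, and Cxcl12 and Cx3cl1 vary little.

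Cxcl9 (ENSMUSG00000029417, chr5:92321347-92328079, minus strand), an interferon-gamma-induced ligand of Cxcr3, had the lowest log2 fold change of the 10. Its level was 0.274, 0.312, 0, 0.164 and 0.165 CPM in Ant-134 replicates 1 to 5 and 1.22, 1.37, 1.17 and 1.11 CPM in Scr replicates 1 to 4. The highest Ant-134 mouse was below the lowest Scr mouse by a wide margin, and the 4 Scr mice were close together. These levels rest on few reads, 9, 12, 0, 5 and 5 counts in Ant-134 against 39, 58, 40 and 38 in Scr. The value of 0 in Ant-134 replicate 3, the library with the fewest counts, allows a level of up to 0.107 CPM. The means were 0.183 ± 0.122 CPM (SD, n = 5) and 1.22 ± 0.110 CPM (SD, n = 4), a level 6.66-fold lower in Ant-134, and the fitted log2 fold change was -2.66 (SE 0.40). Within Scr the coefficient of variation between mice was 9.05%, below the 15.1% that counting alone gives at these depths, and within Ant-134 it was 66.4% against 40.2%.

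Cxcl10 (ENSMUSG00000034855, chr5:92346638-92348889, minus strand), the other Cxcr3 ligand among the 10 and an early target of interferons and NF-kB, had overlapping groups. In Ant-134 it was at 12.3, 4.03, 2.38, 3.37 and 2.38 CPM and in Scr at 10.7, 3.74, 11.6 and 5.36 CPM. Ant-134 replicate 1 was the highest of all 9 mice, and the other 4 Ant-134 mice lay within or below the range of the lower Scr pair. The log2 fold change was -0.67 (SE 0.61), and single mice moved it both ways, to -1.35 without Ant-134 replicate 1, -0.49 without Scr replicate 1 and -0.42 without Scr replicate 3. The coefficient of variation between mice was 85.9% in Ant-134 and 49.7% in Scr, against 7.90% and 6.09% from counting, so the mice differed by more than counting error gives. Annotated exons of Art3 on the other strand share 133 of the 2252 exon bases of Cxcl10. Whether counting used strand is not given in the sources used here, so reads of that stretch are uncertain, and Art3 itself had 67 to 124 counts per library.

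Cxcl9 and Cxcl10 are neighbours in a cluster of 3 genes with Cxcl11 (chr5:92321347-92365485, 44.1 kb). Cxcl10 reached 3.65 to 13.3 times the level of Cxcl9 in Scr on the per-length FPKM scale and 17.3 to 60.1 times in the 4 Ant-134 mice with any Cxcl9 count, where Cxcl9 had 5 to 12 counts. Cxcl11, outside the 10 genes, encodes a Cxcr3 ligand in some mouse strains and is annotated as a polymorphic pseudogene in the count table. It was at 2.77, 0.832, 1.32, 0.524 and 0.0993 CPM in Ant-134 and at 1.69, 1.18, 2.29 and 0.791 CPM in Scr. Its groups overlapped, with a log2 fold change of -0.41 (SE 0.69, unadjusted p = 0.562, Benjamini-Hochberg adjusted p = 0.998, edgeR). The highest Cxcl11 level was in Ant-134 replicate 1, the mouse that was also highest for Cxcl10.

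Ccl5 (ENSMUSG00000035042, chr11:83525778-83530518, minus strand), also called RANTES and made by T cells, NK cells, macrophages and activated glia, was the other gene whose groups did not overlap. It was at 2.80, 2.37, 0.783, 2.55 and 1.82 CPM in Ant-134 and at 5.27, 6.43, 3.87 and 6.56 CPM in Scr. Each Scr mouse was above the highest Ant-134 mouse, and Ant-134 replicate 3, which had no Cxcl9 count, also had the lowest Ccl5. The means were 2.07 ± 0.803 CPM (SD, n = 5) and 5.53 ± 1.25 CPM (SD, n = 4), 2.68-fold lower in Ant-134, with a log2 fold change of -1.41 (SE 0.29).

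Ccl3 (ENSMUSG00000000982, chr11:83647844-83649355, minus strand), the macrophage inflammatory protein that activated microglia release early, was at 0.670, 0.494, 0.854, 1.02 and 0.265 CPM in Ant-134. In Scr it was at 2.32, 0.946, 1.44 and 1.03 CPM. The groups met at 1 point, as Ant-134 replicate 4 lay between the lowest Scr mice. The log2 fold change was -1.11 (SE 0.35), on 8 to 74 counts per library. Ccl4 (ENSMUSG00000018930, chr11:83662584-83664683, plus strand), its close relative, was at 0.792, 0.546, 0.712, 0.688 and 0.331 CPM in Ant-134 and at 1.88, 0.780, 0.939 and 0.615 CPM in Scr. Its groups overlapped, Scr replicate 1 stood above all other mice, and the log2 fold change was -0.77 (SE 0.34). Without Scr replicate 1 this was -0.35, with an unadjusted p value no longer below 0.05. Ccl3, Ccl4 and Ccl5 lie with Ccl6 and Ccl9 in 138.9 kb of chromosome 11 (chr11:83525778-83664683), and Ccl6 and Ccl9 had log2 fold changes of -0.19 and -0.11 with unadjusted p values of 0.517 and 0.666 (edgeR).

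Ccl2 (ENSMUSG00000035385, chr11:82035571-82037453, plus strand), the main monocyte attractant, was at 3.14, 2.55, 1.85, 1.51 and 1.62 CPM in Ant-134 and at 5.08, 1.66, 2.85 and 1.90 CPM in Scr. The groups overlapped over most of their range. The log2 fold change of -0.41 (SE 0.34) rested on Scr replicate 1 and was 0.0067 without it. Ccl12 (ENSMUSG00000035352, chr11:82101845-82103400, plus strand), a second Ccr2 ligand of the mouse, was at 14.1, 6.37, 9.08, 8.35 and 7.08 CPM in Ant-134 and at 13.4, 8.61, 5.13 and 5.89 CPM in Scr. Replicate 1 was the highest mouse in each group, and the log2 fold change was 0.13 (SE 0.34), which became -0.10 without Ant-134 replicate 1 and 0.45 without Scr replicate 1. Both lie in the other chemokine cluster of chromosome 11 (270.1 kb, 6 genes), together with Ccl7, which had a log2 fold change of -0.49 (unadjusted p = 0.122, edgeR).

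The 3 remaining genes act at membranes or in the resting brain. Cxcl16 (ENSMUSG00000018920, chr11:70453983-70459984, minus strand), a transmembrane chemokine that is shed as the ligand of Cxcr6, was at 4.39, 3.25, 2.81, 3.60 and 2.25 CPM in Ant-134 and at 5.92, 4.99, 4.49 and 4.33 CPM in Scr. Only Ant-134 replicate 1 reached the Scr range, and it did so by passing Scr replicate 4 alone. The log2 fold change was -0.59 (SE 0.17), that is 1.51-fold lower. Annotated exons of Zmynd15 on the opposite strand share 552 of 3021 exon bases with Cxcl16, which leaves those reads uncertain, and Zmynd15 had 37 to 76 counts against 68 to 211 for Cxcl16.

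Cxcl12 (ENSMUSG00000061353, chr6:117168535-117181367, plus strand), the ligand of Cxcr4 that guides granule cell precursors and is made by vessels and meninges, was at 70.9, 68.2, 70.8, 72.0 and 67.0 CPM in Ant-134. In Scr it was at 67.1, 79.7, 66.5 and 67.3 CPM. The groups overlapped, as Scr replicate 2 lay above all Ant-134 mice whereas 4 of the 5 Ant-134 mice lay above the other 3 Scr mice, and the log2 fold change was -0.01 (SE 0.055). Cx3cl1 (ENSMUSG00000031778, chr8:94772009-94782427, plus strand), or fractalkine, the membrane-bound neuronal ligand of the microglial receptor Cx3cr1, was at 637, 677, 695, 643 and 682 CPM in Ant-134 and at 687, 601, 688 and 664 CPM in Scr. Its log2 fold change was 0.01 (SE 0.049), and its coefficient of variation between mice was 3.83% and 6.24%. This is the gene with the miR-134 seed match shown above.

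**Figure D2:**
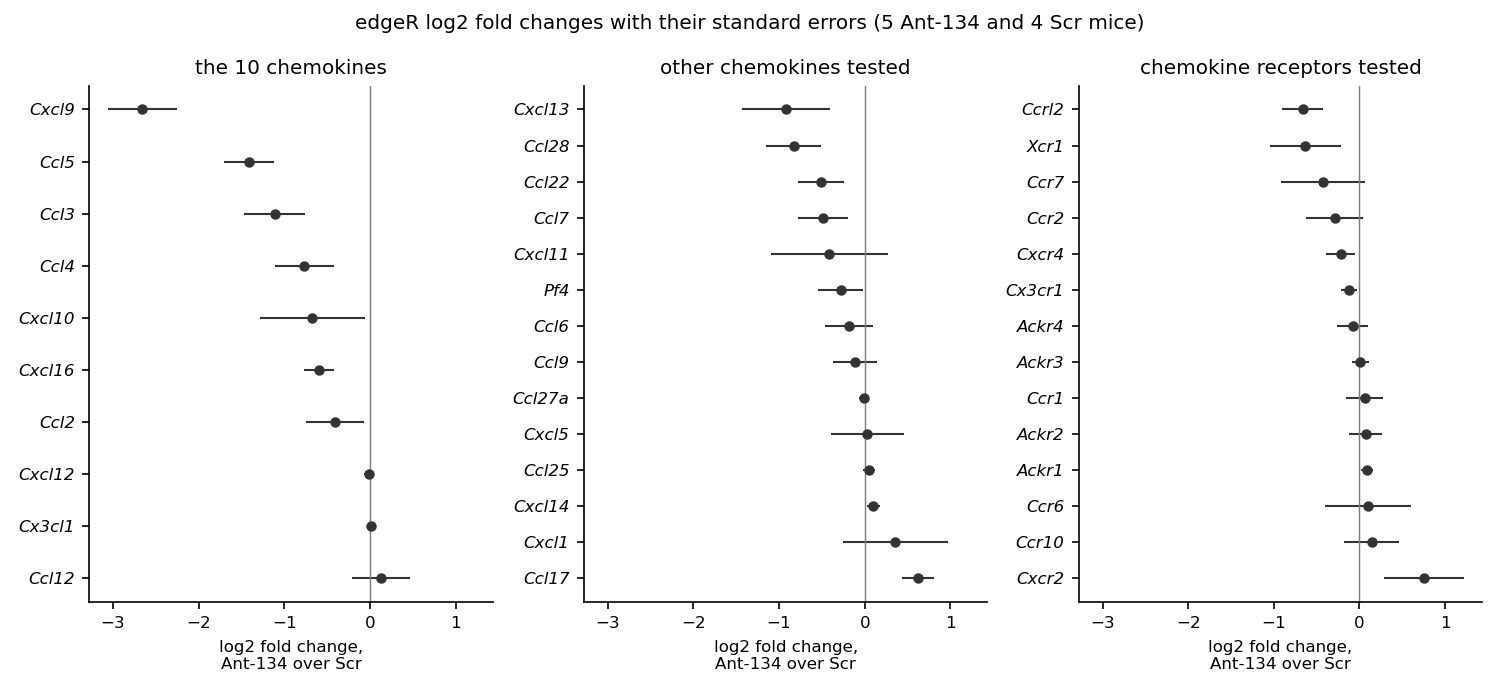
Fitted log2 fold changes of Ant-134 over Scr (x axis) with their standard errors (bars) for the 10 chemokines, the 14 other chemokines tested and the 14 chemokine receptors tested. Cxcl9 at -2.66 and Ccl5 at -1.41 lie furthest to the left, while most receptors lie near 0.

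Levels of different genes were compared only as FPKM, which takes gene length into account. By the median of 9 mice the order was Cx3cl1 (170.8 FPKM), Ccl12 (15.4), Cxcl12 (8.27), Ccl5 (2.90), Cxcl10 (1.77), Ccl2 (1.66), Cxcl16 (1.42), Ccl3 (1.22), Ccl4 (1.07) and Cxcl9 (0.102). The ranges of neighbours over the 9 mice were apart between Cx3cl1 and Ccl12, between Cxcl12 and Ccl5 and between Ccl4 and Cxcl9, and they overlapped for all other neighbours. By the medians of the groups taken apart, Ccl3 (1.59 FPKM) stood above Cxcl16 (1.55) in Scr, whereas in Ant-134 Ccl2 (1.61) stood above Cxcl10 (1.48) and Ccl4 (1.03) above Ccl3 (0.869). Cx3cl1 alone made up 75.7% to 86.4% of the summed FPKM of the 10 genes in a mouse. The summed level therefore shows little of the differences in Cxcl9 or Ccl5. In Scr, Cxcl9 had a mean of 0.400 ± 0.0355 FPKM (SD, n = 4), the lowest mean of the 10 in that group, and in Ant-134 it was 0.0602 ± 0.0400 FPKM (SD, n = 5).

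**Figure D3:**
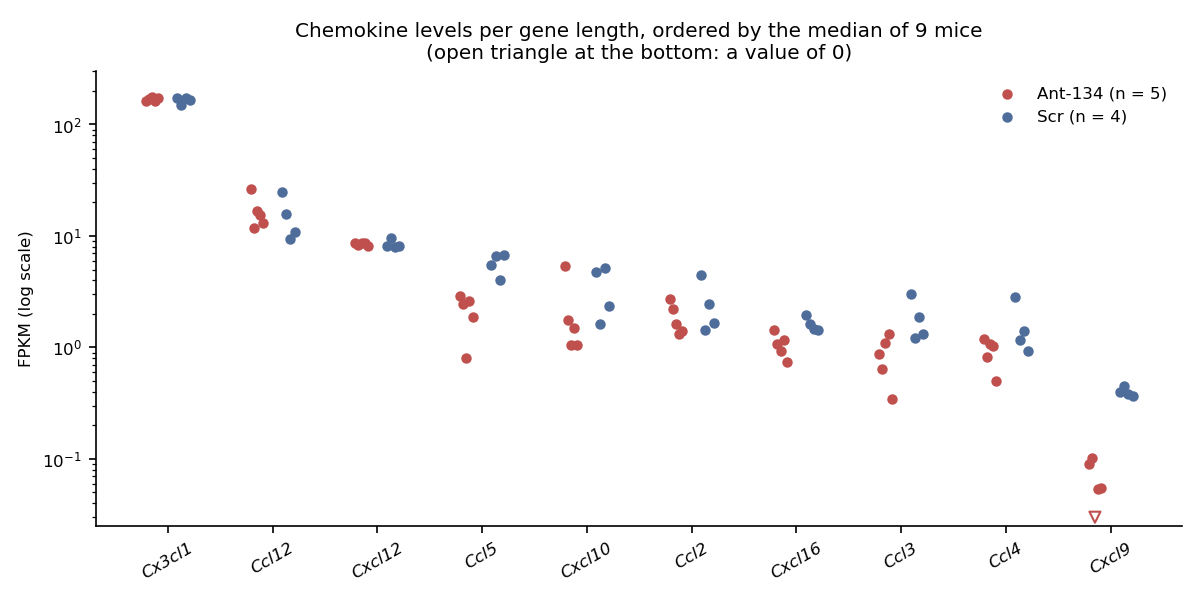
FPKM of each chemokine in each mouse (y axis, log scale), ordered by the median of 9 mice, for Ant-134 (red) and Scr (blue); an open triangle at the bottom stands for a value of 0. Cx3cl1 lies near 170.8 FPKM and Cxcl9 at no more than 0.448 FPKM.

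Mice of a group differed from each other, and some of the chemokines moved together in this. After the mean of each group had been subtracted from log2(CPM + 0.5), the Pearson correlation over 9 mice was 0.89 for Ccl3 and Ccl4, 0.80 for Cxcl9 and Ccl5, 0.79 for Cxcl10 and Ccl2, 0.79 for Ccl2 and Ccl4, and 0.76 for Cxcl10 and Cxcl11. These are descriptions over the same 9 libraries, in which all genes share depth and dissection. For Cxcl9 and Ccl5 the value was between 0.46 and 0.87 with 1 mouse left out, lowest without Ant-134 replicate 3, and the rank correlation was 0.47. Ccl3 and Ccl4 kept 0.85 to 0.93 with 1 mouse left out. Cxcl16 had 0.45 with Cxcl9 and 0.48 with Ccl5. Cxcl9 had lower values with Cxcl10 (0.41), Ccl2 (0.28), Ccl4 (-0.02) and Ccl3 (-0.28). Cxcl12 and Cx3cl1 moved in opposite directions (-0.86), over small ranges.

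**Figure D4:**
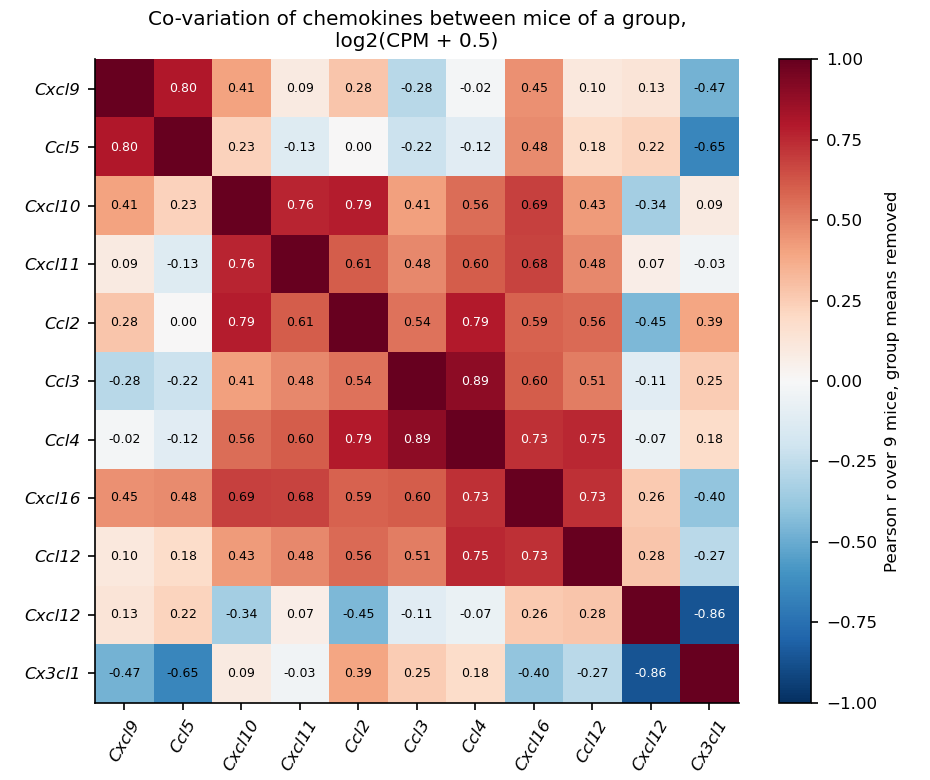
Pearson correlation between chemokines over 9 mice after the mean of each group was subtracted from log2(CPM + 0.5); colour and numbers give the coefficient. Cxcl9 and Ccl5 form 1 pair (0.80), Cxcl10, Cxcl11, Ccl2, Ccl3, Ccl4, Cxcl16 and Ccl12 have positive values with each other (0.41 to 0.89), and Cxcl12 and Cx3cl1 are opposed (-0.86). Some of the positive values depend on 1 mouse. Without Ant-134 replicate 1, Ccl12 had 0.05 with Cxcl10 and 0.19 with Cxcl11, and without Scr replicate 1 Ccl2 had 0.24 with Ccl3.

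Among 16018 tested genes with a mean of at least 1 CPM, the 5 with the highest such correlation with Cxcl9 over 9 mice were Lgals1 (0.975), Txndc12 (0.951), Sord (0.938), Anxa2 (0.935) and Gm10167 (0.933). For Ccl5 they were Ect2 (0.978), Gm8995 (0.966), Ly6c2 (0.953), Ints8 (0.947) and Slc38a2 (0.946). Ly6c2, a surface protein of inflammatory monocytes, was at 4.75, 4.24, 0.569, 3.83 and 3.81 CPM in Ant-134 and at 6.46, 6.34, 3.23 and 9.17 CPM in Scr. It was lowest in Ant-134 replicate 3, like Ccl5, and its log2 fold change was -0.86 (unadjusted p = 0.129, edgeR). Both lists are the top of a ranking of 16018 genes over 9 mice and carry no test. With the group means kept, the values with Cxcl9 were 0.75 for Lgals1, 0.40 for Txndc12, 0.45 for Sord, 0.77 for Anxa2 and 0.75 for Gm10167. Those with Ccl5 then spanned 0.14 (Ints8) to 0.88 (Ly6c2). Cxcl9 had 0 counts in Ant-134 replicate 3, and neither ranking was repeated without that mouse.

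**Figure D5:**
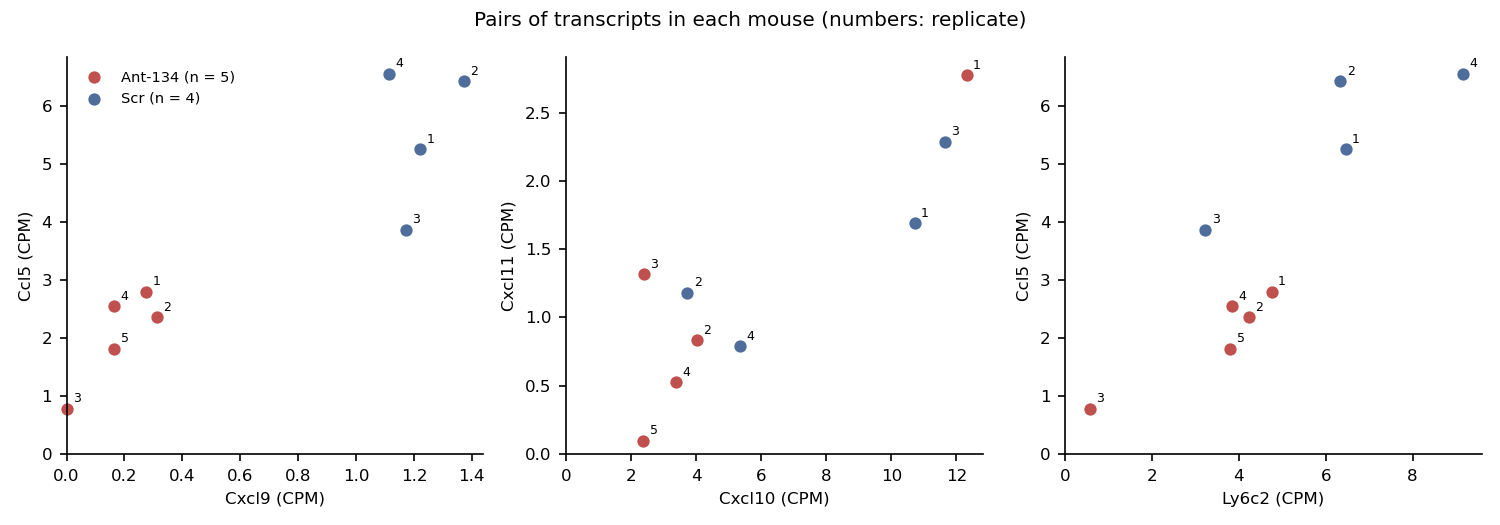
Levels in each mouse (CPM, both axes from 0; numbers are replicates) of Ccl5 against Cxcl9, Cxcl11 against Cxcl10 and Ccl5 against Ly6c2, for Ant-134 (red) and Scr (blue). Ant-134 replicate 3 is lowest in Cxcl9, Ccl5 and Ly6c2, and Ant-134 replicate 1 is highest in Cxcl10 and Cxcl11.

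The rest of the chemokine family was taken as 29 further genes, of which 14 were tested and 15 were too low. Of the 14, 1 was lower and 1 was higher at the unadjusted threshold of 0.05 and 0 after adjustment (edgeR). DESeq2 also gave 1 and 1 with 0 adjusted, over 28 of the genes with a p value. Of all genes tested by edgeR, 2.69% were called lower and 4.18% in either direction. The median log2 fold change was -0.15, against -0.63 for the 10 chosen genes and 0.0026 for all genes. Ccl17, a ligand of Ccr4 that lies near Cx3cl1 on chromosome 8 (chr8:94810453-94812036), was at 2.22, 2.42, 2.74, 1.64 and 2.42 CPM in Ant-134 and at 1.32, 1.66, 1.73 and 1.23 CPM in Scr. It was higher in 4 of 5 Ant-134 mice than in any Scr mouse, with a log2 fold change of 0.62 (SE 0.19, unadjusted p = 0.0051, adjusted p = 0.998 in edgeR), and kept an unadjusted p value below 0.05 with each of the 9 mice left out. Ccl28, a mucosal chemokine, was lower, with 0.487 ± 0.227 CPM (SD, n = 5) against 0.870 ± 0.168 CPM (SD, n = 4), at a log2 fold change of -0.83 (SE 0.32, unadjusted p = 0.0220, adjusted p = 0.998 in edgeR). That call was lost without Scr replicate 2.

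The receptors through which chemokines act were read in the same fit. Of 22 receptor genes, 14 were tested, 1 was lower and 0 were higher at the unadjusted threshold, with a median log2 fold change of -0.03 (edgeR). DESeq2 also gave 1 and 0, over 21 receptors with a p value. Over all genes tested by edgeR, 2.69% were called lower and 4.18% in either direction. Cxcr3, the receptor of Cxcl9 and Cxcl10, had 0 to 8 counts per library (0 to 0.265 CPM) and Cxcr6 had 2 to 14 counts, so neither passed the filter. With no filter their log2 fold changes were -0.60 (SE 0.74, unadjusted p = 0.422, adjusted p = 0.905) and -0.47 (SE 0.58, unadjusted p = 0.423, adjusted p = 0.905) in edgeR. Ccr1, a receptor of Ccl3 and Ccl5, had a log2 fold change of 0.06 (SE 0.22, unadjusted p = 0.772) and Ccr2, which binds Ccl2 and Ccl12, one of -0.29 (SE 0.33, unadjusted p = 0.412, edgeR). With the replicate number as a block, Ccr2 had an unadjusted p value of 0.0054 (edgeR), although these numbers did not pair the mice. The log2 fold changes of Cxcr4 and the scavenger Ackr3, both receptors of Cxcl12, were -0.22 (SE 0.17) and 0.01 (SE 0.10), and that of Cx3cr1 was -0.12 (SE 0.097), with unadjusted p values of 0.213, 0.907 and 0.236 (edgeR). The gene called was Ccrl2, an atypical receptor that binds chemerin, with 0.900 ± 0.241 CPM (SD, n = 5) against 1.43 ± 0.324 CPM (SD, n = 4). Its log2 fold change was -0.66 (SE 0.24, unadjusted p = 0.0161, adjusted p = 0.998 in edgeR), and the call was lost without Scr replicate 3.

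Upstream of the chemokines, 11 inducing cytokines and 22 transducers of interferon and NF-kB signals were examined. Ifng, which encodes the classical inducer of Cxcl9, had 0 counts in 7 libraries and 1 count in the other 2, both Scr. Of the 5 inducing cytokines tested, 1 was lower, Csf1, at a log2 fold change of -0.23 (SE 0.087, unadjusted p = 0.0190, adjusted p = 0.998 in edgeR), a call lost without Ant-134 replicate 4 or Scr replicate 3. Of the 22 transducers 2 were lower. Over cytokines and transducers together 3 of 27 were called, beside 4.18% of all genes tested (edgeR, either direction). Without Ant-134 replicate 1 the number was 8, in a fit that called 973 of 19581 genes. It was 5 without Scr replicate 4, where 973 of 20089 genes were called. Without the 3 libraries rich in choroid plexus markers it was 6, with 576 of 20073 genes called. Tnfrsf1b, a TNF receptor of microglia and endothelium, was at 6.55, 6.91, 6.19, 8.71 and 6.92 CPM in Ant-134 and at 10.7, 8.63, 10.7 and 8.17 CPM in Scr, with a log2 fold change of -0.44 (SE 0.12, unadjusted p = 0.0028, adjusted p = 0.987 in edgeR). Ant-134 replicate 4 was the only one of its group within the Scr range. Irf1, a transcription factor induced by interferon-gamma, had a log2 fold change of -0.28 (SE 0.13, unadjusted p = 0.0493, adjusted p = 0.998 in edgeR). Its unadjusted p value stayed below 0.05 in 4 of the 9 fits with 1 mouse left out and was 0.0533 with the replicate block (edgeR). None of 8 proteases that cut or shed chemokines was called (0 at an unadjusted p value below 0.05 in edgeR and 0 in DESeq2).

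Markers of cells that can make these chemokines were read beside them. Over all genes tested 48.8% had a negative log2 fold change, 2.69% were called lower and 0.895% had each Ant-134 mouse below each Scr mouse. All 11 microglial markers had a negative log2 fold change and 4 of them were called lower (Csf1r, C1qa, C1qb and Aif1, edgeR, unadjusted). Their summed level was 327.1 to 344.6 CPM in Ant-134 and 359.3 to 412.0 CPM in Scr, a range without overlap and with a median log2 fold change of -0.19. Taken singly, the groups overlapped in each marker, with 0 of the 11 apart. Siglech and Fcrls had log2 fold changes of only -0.02 and -0.05. The 8 markers of border macrophages summed to 32.6 to 40.4 CPM and 34.9 to 48.7 CPM, with Ms4a7 and Stab1 called lower, 4 of the 8 negative and a median log2 fold change of 0.08. Of 18 T and NK cell markers 4 were tested and 0 called (edgeR, unadjusted), and DESeq2 called 0 of the 18. The sum of the 18 was 2.25 to 3.72 CPM in Ant-134 and 2.46 to 4.95 CPM in Scr. None of the 18 was at 0 in all libraries, but Cd3d, Cd3e, Cd3g and Cd8a had at most 9 counts in any library. Monocyte and neutrophil markers summed to 12.4 to 45.8 CPM and 28.2 to 36.2 CPM, with Chil3 called lower of 7 tested, 3 of the 7 negative and a median log2 fold change of 0.28. Meningeal fibroblast markers were negative in 8 of 8 and called lower in 5, at 169.2 to 244.9 CPM and 220.0 to 267.6 CPM, with a median log2 fold change of -0.46 and 2 of the 8 without overlap between the groups. Endothelial markers summed to 210.7 to 249.7 CPM in Ant-134 and 226.3 to 297.0 CPM in Scr, with 8 of 8 negative, 2 called lower and a median log2 fold change of -0.15. Markers of mural cells, the cells that wrap vessels, summed to 159.0 to 190.9 CPM and 167.1 to 234.5 CPM, with 8 of 8 negative, 1 called lower (Vtn) and a median of -0.12. Astrocyte markers were negative in 5 of 8, with 0 called and a median log2 fold change of -0.02. Neuron markers were negative in 1 of 8, with 1 called higher (Snap25), 0 called lower and a median of 0.03. The part of these cell populations in the chemokine values was not tested.

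When the 3 libraries rich in choroid plexus markers were left out, a choice made after seeing the data, 4 Ant-134 and 2 Scr mice remained. In those 6 mice Cxcl9 had a log2 fold change of -2.76, Ccl5 of -1.64, Cxcl10 of -1.39 and Ccl2 of -0.87, whereas Ccl12 turned from 0.13 to -0.32, Cxcl12 from -0.01 to 0.05, and Cx3cl1 was at 0.00082. In this fit 7 of the 10 chemokines had an unadjusted p value below 0.05 with a lower level (edgeR), against 2% of the 20073 genes tested in that fit. In 5 of the 10 each Ant-134 mouse lay below each Scr mouse, which with 4 mice against 2 held for 5.67% of those genes. Nothing is read from these counts either. Across the fits with 1 mouse left out, the log2 fold change was -2.95 to -2.38 for Cxcl9, -1.55 to -1.21 for Ccl5, -1.32 to -0.79 for Ccl3 and -0.72 to -0.49 for Cxcl16.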

How the data were processed

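RNA was sequenced from 9 hippocampi, and groups and replicate numbers come from the sample titles. Per the study's methods, the authors aligned paired-end reads of poly-A libraries to GRCm38 with HISAT2 2.0.5, counted them on genes with featureCounts 1.5.0-p3 and deposited counts without normalization. They also deposited FPKM, counts divided by gene length and by the total of the library. The use of strand in counting is not given in the sources used here. Counts were compared with edgeR 4.0.16 (R 4.3.3) by its quasi-likelihood test with TMM scaling and filterByExpr (minimum count 10), and p values were adjusted by Benjamini-Hochberg over all 19782 genes tested. The SE of a log2 fold change was derived from the F statistic. The study's threshold, an unadjusted p value below 0.05, was kept and DESeq2 1.42.0, its tool, was an alternative. Other alternatives were DESeq2 size factors, no filter, a filter of 10 counts per sample, no robust estimation, a replicate block, limma 3.58.1 on log2(FPKM + 1) or log2(FPKM + 0.1), and leaving out each mouse. The scripts were tested on simulated data.

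The members and gene lists were chosen with earlier results of these data known. Genes named are the members, called genes of the pathway lists, receptors of the members, and the 5 genes most like Cxcl9 or Ccl5. Cxcl11, Cxcl13, Ccl6, Ccl7, Ccl9, Ifng and the marker genes named beyond the most abundant were chosen after their values were seen. Where a symbol had further rows on unplaced scaffolds (Ccl19, Ccl21a, Ccl21b and Ccl27a), the row on an assembled chromosome was used. Of 16 pairs of libraries of the same group, 0 agreed within counting noise (chi-square per gene with a count 8.37 to 20.6). Totals of 28583298 to 41978113 counts set the precision. Samples are single mice, and sex is not given for them. Some listed genes are not reported here, and list counts and sums leave them out.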

Additional observations from a re-analysis of the deposited data

Results flagged for a closer look

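In 4 sets of values 1 mouse stood apart from the rest of its group by more than Dixon's 95% limit. The 70 sets examined were the 5 Ant-134 or the 4 Scr values of the 10 chemokines, the receptors of the members, the genes called in the pathway lists, the library totals and the summed marker lists. Over these, chance alone would give about 3.5, so the number itself is not unusual. Cxcl10 was at 12.3 CPM in Ant-134 replicate 1, against 2.38 to 4.03 CPM in the other 4 Ant-134 mice. Cxcl12 was at 79.7 CPM in Scr replicate 2, against 66.5 to 67.3 CPM in the other 3 Scr mice. Tnfrsf1b was at 8.71 CPM in Ant-134 replicate 4, against 6.19 to 6.92 CPM in the others. The summed choroid plexus markers were at 2594 CPM in Ant-134 replicate 1, against 70.4 to 685.2 CPM in the other Ant-134 mice, and this is the mouse with the high Cxcl10. Over all 63 tested genes of the pathway lists, 6 of 126 such sets passed the limit, against 6.3 by chance. They were Tnfrsf1b in Ant-134 replicate 4, Cxcl14 and Irf8 in Scr replicate 1, Nfkb2 in Scr replicate 3, and Ctsb and Stat2 in Ant-134 replicate 1. Stat2, a transducer of interferon signals, was at 60.7 CPM in that mouse, against 37.4 to 40.9 CPM in the other 4 Ant-134 mice. Whether the high values of Ant-134 replicate 1 share a source was not tested.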

How the results depend on the processing

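The log2 fold changes of Cxcl9, Ccl5, Ccl3, Cxcl16 and Ccl4 were negative under each alternative run that held them. The unadjusted p value of Ccl4 was not below 0.05 without Ant-134 replicate 2, 4 or 5, without Scr replicate 1 or 3, with the replicate block (log2 fold change -0.53) or in limma (-0.39, -0.65 and -0.39). With at least 10 counts in every sample Cxcl9 and Ccl3 were filtered out, and 3 of the remaining 8 chemokines were past the threshold with a lower level, as were 2.7% of the 17568 genes in that fit. On log2(FPKM + 1) the difference in Cxcl9 was -0.40, since a pseudocount understates changes of low genes.

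The genes called among all tested rose from 827 to 1775 with no filter and to 1467 in limma on all genes above 0. Genes past adjustment moved from 0 to 14 with no filter, to 6 without the choroid-plexus-rich libraries and to 17 without Ant-134 replicate 1, and were 0 or 1 without any other single mouse. Without 1 mouse the genes called were 629 to 973, the chemokines past the threshold 4 to 6 of 10 and those with a negative sign 7 to 9. The other chemokines called moved from 2 to 1 with at least 10 counts in every sample, in limma with either pseudocount (1 and 1) and without the choroid-plexus-rich libraries (1), and ranged from 1 to 3 without 1 mouse. Receptors called moved from 1 to 2 with no filter, in limma on all genes and without the choroid-plexus-rich libraries, and were 0 without Scr replicate 3 and at most 2 without any 1 mouse. Inducing cytokines and transducers moved from 3 to 6 without the choroid-plexus-rich libraries and ranged from 3 to 8 without 1 mouse, the 8 being without Ant-134 replicate 1. Proteases ranged from 0 to 1. The cause of these changes was not tested.

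Replicate numbers are shared by the groups but did not pair the mice, as same-numbered samples had correlations of -0.15 to 0.053. With the replicate block 808 genes were called, 2 after adjustment, with 4 of the 10 chemokines, 5 other chemokines, 2 receptors and 1 protease among them. Depth limits Cxcl9, Cxcr3 and Ifng.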

Other observations

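Cxcl13, a B cell attractant that lies outside the 10 genes, varied widely between mice. It was at 23.4, 17.1, 10.3, 16.2 and 3.57 CPM in Ant-134 and at 41.0, 27.3, 14.8 and 24.6 CPM in Scr, with a log2 fold change of -0.92 (SE 0.51, unadjusted p = 0.113 in edgeR). The groups overlapped.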
